A study of Mus musculus with 20 samples.

Results

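Bone morphogenetic protein (BMP) signalling was followed through 9 genes in colonic organoids, termed colonoids, grown from wildtype (WT) mice and from mice lacking tumour necrosis factor receptor 2 (Tnfr2-/-). The 9 were chosen by name from 35240 gene symbols in the deposited abundance table. They were the ligand genes Bmp2, Bmp4 and Bmp7, the protease gene Bmp1, the antagonist gene Grem1, the target genes Id1, Id2 and Id3, and Smad6, which encodes an inhibitory Smad. All 9 were found, as 26 transcripts that were summed per gene, and 8 reached the mean level of 1 needed for testing, Smad6 being the exception.

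Colonic crypts of both genotypes had been embedded in Matrigel, grown in Intesticult medium, passaged 5 times, and filtered through nylon mesh before seeding. Total RNA was taken on 5 occasions, 3 early (1, 2 and 3 days post-passage, DPP) and 2 late (5 and 7 DPP), with 2 libraries per genotype and day, 20 in all. Per the series design, 2 mice per genotype stand behind the 20 libraries, and the number 1 or 2 that each library carries was taken for the number of its mouse, with 1 library per mouse and day. The study's methods name the WT mice as C57BL/6 and the Tnfr2-/- mice as the whole-body B6.129S2-Tnfrsf1b tm1Mwm/J line. The allele is not limited to a cell type, and neither genotype received a treatment. The culture methods of the study, written for colonoids passed through single cells, name male and female mice of 8 weeks, and the sex behind each library was not given.

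BMP ligands bind paired type I and type II receptor kinases, which phosphorylate Smad1, Smad5 and Smad9, and these enter the nucleus with Smad4 to switch on target genes, the Id genes among them. In the colon, BMP activity is high toward the luminal surface, where it favours differentiation, and low at the crypt base, where stromal cells secrete antagonists such as gremlin 1, the Grem1 product, that trap the ligands and protect stem cells. Bmp1 is named with the family but encodes a metalloprotease that trims procollagens and cleaves the antagonist chordin.

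All 9 are protein-coding genes. In the mm10 build, GRCm38, Grem1 (chr2:113746164-113758646, minus strand), Bmp2 (chr2:133552159-133562885, plus strand), Id1 (chr2:152736251-152737410, plus strand) and Bmp7 (chr2:172868012-172940321, minus strand) share chromosome 2, and Bmp4 (chr14:46383520-46390669, minus strand) and Bmp1 (chr14:70474558-70520234, minus strand) share chromosome 14. Smad6 is at chr9:63953076-64022059 and Id2 at chr12:25093799-25097140, both on the minus strand. Id3 (chr4:136143497-136145755, plus strand) is on the chromosome of the targeted gene, Tnfrsf1b, at a distance of 9.07 Mb. 

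The 250 bases before the annotated start were available from RefSeq (GRCm38.p6) for 5 of the 9 genes, Bmp4, Grem1, Id2, Id3 and Smad6. They are shown for Grem1 (chr2:113758649-113758898, minus strand) and Bmp4 (chr14:46390670-46390919, minus strand), the antagonist and the ligand that ranked first and second in level, with the Smad-binding letters GGCGCC (its own reverse complement) and CAGAC (or GTCTG on the other strand) in capitals. No overlap between the 2 motifs occurred.
Grem1: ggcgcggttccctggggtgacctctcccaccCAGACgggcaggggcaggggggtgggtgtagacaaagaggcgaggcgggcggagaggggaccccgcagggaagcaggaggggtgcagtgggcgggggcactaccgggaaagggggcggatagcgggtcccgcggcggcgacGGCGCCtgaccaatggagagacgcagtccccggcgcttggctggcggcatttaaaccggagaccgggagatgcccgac
Bmp4: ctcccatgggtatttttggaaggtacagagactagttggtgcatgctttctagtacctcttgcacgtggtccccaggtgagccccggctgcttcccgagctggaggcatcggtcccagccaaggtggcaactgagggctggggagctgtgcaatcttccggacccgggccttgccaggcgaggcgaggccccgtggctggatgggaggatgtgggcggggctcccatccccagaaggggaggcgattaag
The Grem1 stretch held GGCGCC once and CAGAC once, and the Bmp4 stretch held neither set of letters. Of 32817 RefSeq promoter stretches of this length, 9.6% held GGCGCC and 42.2% held CAGAC or GTCTG, so that a match to the second is common. For the target genes, the matches are shown with 12 flanking bases on either side, at chr12:25096306-25096335 for Id2 (minus strand) and at chr4:136143643-136143671 and chr4:136143742-136143770 for Id3 (plus strand). RefSeq and GENCODE place the starts of Id2 and Id3 differently, and these windows, which precede the RefSeq starts, lie within the GENCODE gene spans given above.
Id2: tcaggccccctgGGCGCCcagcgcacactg
Id3, first match: tgtcctcggcgtCAGACcagcctaaggaa
Id3, second match: ggacccttggcgGTCTGttttgaataagg
These letters are described only as matches, and binding was not measured.

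Values are the authors' size-factor-normalised TPM, which account for transcript length, so levels can be set side by side between genes. The files hold no read counts, and the study's methods give only an approximate depth common to all libraries, so no counting interval can be given. Between 13007 and 13469 gene symbols were at 1 or more in each library, and the libraries of the 2 mice of a group correlated across genes with r between 0.923 and 0.956. Tnfrsf1b, the targeted gene, was between 11.1 and 21.9 in the 10 WT libraries and between 2.71 and 11.5 in the 10 Tnfr2-/- libraries, lower over all days (log2 fold change -1.35, SE 0.17, adjusted p = 9.72e-05 by limma), with an overlap that came from the late Tnfr2-/- libraries.

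Grem1 had the highest mean level of the 9, at 436 ± 271 (SD, n = 20 libraries), above 97.6% of the genes tested. Bmp4 followed at 112 ± 81.9, Id1 at 71.3 ± 27.5, Bmp2 at 55.9 ± 31.6, Bmp1 at 39.3 ± 17.8, Bmp7 at 27.5 ± 14.6, Id3 at 22.8 ± 11.4 and Id2 at 13.9 ± 6.40. Each of the neighbours from Bmp4 down to Id2 in this order differed by less than the larger of their SDs. Smad6 came last at 0.804 ± 0.963, with 0 in some WT libraries and at most 4.21, and was too low to compare.

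**Figure D1:**
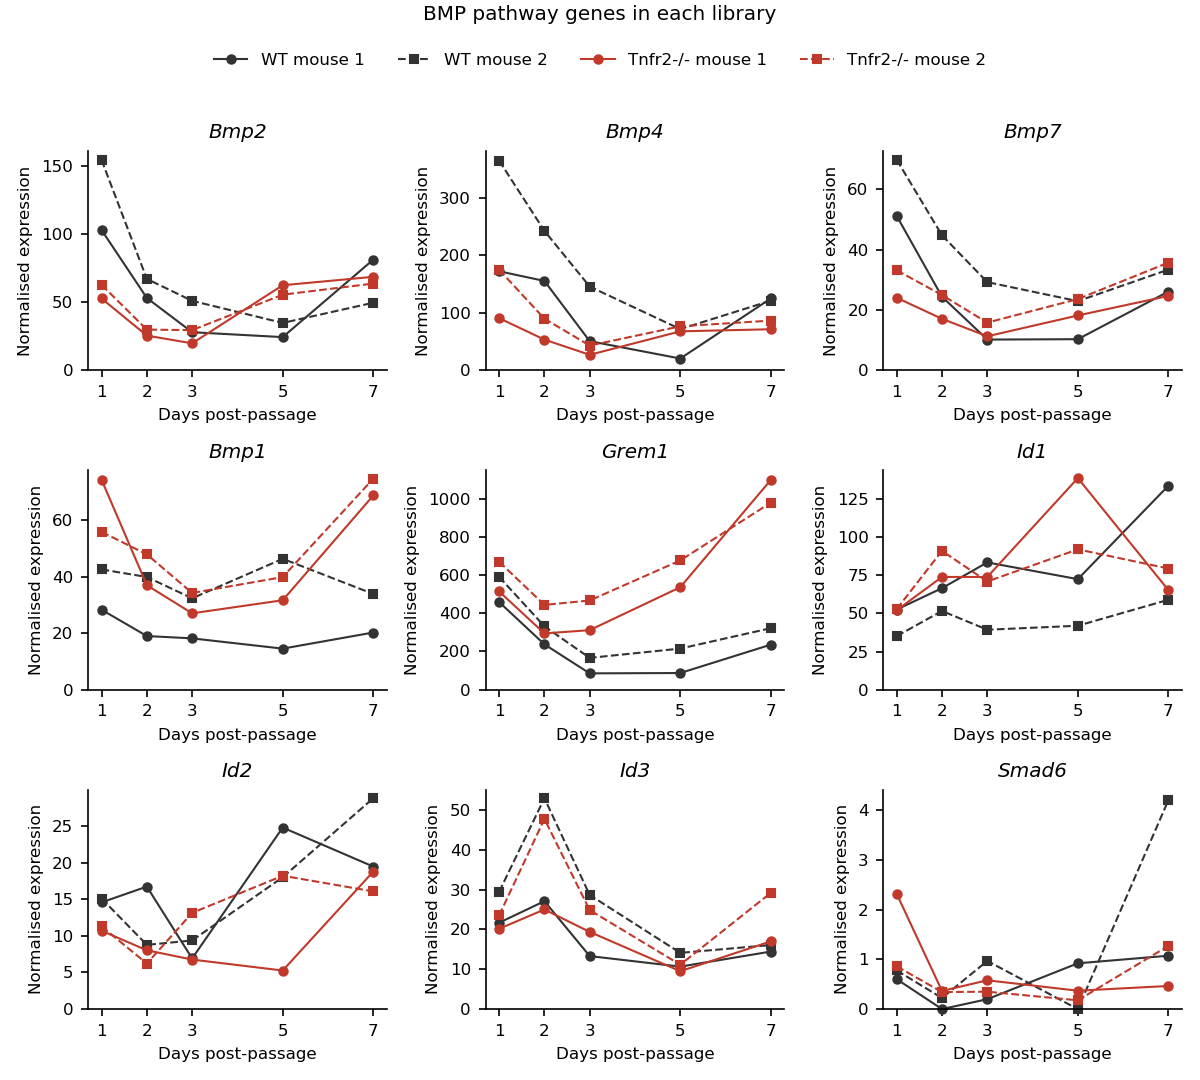
Normalised expression of the 9 genes (y axis, linear, from 0) by DPP (x axis) in each of the 20 libraries, with WT in black and Tnfr2-/- in red, mouse 1 as circles with solid lines and mouse 2 as squares with dashed lines. In the Grem1 panel both red lines lie above both black lines from 3 DPP on, and in the Bmp2 panel they lie below them at 1 and 2 DPP and above them at 5 DPP.

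Grem1 was the member with the clearest genotype difference: the late Tnfr2-/- libraries held 3.83 times the WT level. In WT, Grem1 was 459 and 591 (mouse 1, then mouse 2) at 1 DPP, 237 and 332 at 2 DPP, 85.5 and 167 at 3 DPP, 87.2 and 215 at 5 DPP, and 236 and 322 at 7 DPP. In Tnfr2-/-, it was 514 and 670.0 at 1 DPP, 295 and 444 at 2 DPP, 312 and 467 at 3 DPP, 537 and 677 at 5 DPP, and 1099 and 979 at 7 DPP. The genotypes overlapped at 1 and 2 DPP and were apart at 3, 5 and 7 DPP, where each Tnfr2-/- library was above both WT libraries of that day. With 2 libraries against 2, a separation on a single day often arises without a difference, and its share over all genes was not computed. The same limit holds for the day-by-day separations of the other members.

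Averaged over the late days, 5 and 7 DPP, Grem1 was 823 ± 261 in Tnfr2-/- and 215 ± 97.0 in WT (SD, n = 4 libraries), or 2.02 as a difference on the log2(value + 1) scale (SE 0.28, 95% interval 1.41 to 2.63, limma adjusted p = 0.00129). Grem1 made 1 of the 8 tested members called at the late days, where 6.45% of the 13539 genes tested were called, 3.8% as higher and 2.64% as lower. Over the early days, 1 to 3 DPP, the log2 fold change was 0.74 (SE 0.23, adjusted p = 0.174, or 1.04 and 0.0182 without WT mouse 2), and over all days it was 1.25 (SE 0.25, adjusted p = 0.00609), a call that was lost without WT mouse 1 (0.89, adjusted p = 0.0535) or Tnfr2-/- mouse 2 (1.08, adjusted p = 0.156) and with 1 value per mouse (adjusted p = 0.282). The late call was kept without each of the 20 libraries in turn (adjusted p up to 0.00958) and without either WT mouse, but was lost without Tnfr2-/- mouse 1 (log2 fold change 2.06, adjusted p = 0.120) or mouse 2 (1.98, adjusted p = 0.145), and when each mouse was averaged to 1 value (adjusted p = 0.204). Except with 1 value per mouse, these p-values treat the libraries of a mouse as separate samples, so they measure the spread between libraries of 2 mice per genotype.

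Bmp2 encodes a ligand that is made in the differentiated colonic epithelium and in the surrounding mesenchyme. In WT, it was 103 and 155 at 1 DPP, 53.1 and 67.1 at 2 DPP, 28.0 and 51.0 at 3 DPP, 24.4 and 34.8 at 5 DPP, and 81.3 and 49.6 at 7 DPP. The Tnfr2-/- libraries held 52.7 and 62.8 at 1 DPP, 25.5 and 29.9 at 2 DPP, 19.8 and 29.5 at 3 DPP, 62.5 and 55.6 at 5 DPP, and 68.7 and 63.7 at 7 DPP. Both Tnfr2-/- libraries were below both WT libraries at 1 and 2 DPP and above them at 5 DPP, and the genotypes overlapped at 3 and 7 DPP.

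Over the early days Bmp2 was lower in Tnfr2-/-, at 36.7 ± 17.0 against 76.1 ± 45.7 in WT (SD, n = 6 libraries), which gave a fitted log2 difference of -0.94 (SE 0.18, adjusted p = 0.0224 by limma). Bmp2 made 1 of the 8 tested members called there, where 1.2% of all genes were called, 0.768% as higher and 0.428% as lower. At the late days the difference pointed the other way but was not called, at 62.6 ± 5.40 in Tnfr2-/- and 47.5 ± 24.8 in WT (log2 fold change 0.52, SE 0.22, adjusted p = 0.181). The early call was lost without any 1 of 7 libraries (adjusted p 0.0524 to 0.0801), namely WT mouse 2 at 1, 2 and 3 DPP, Tnfr2-/- mouse 1 at 1, 2 and 3 DPP, and Tnfr2-/- mouse 2 at 2 DPP. It was also lost without either Tnfr2-/- mouse (adjusted p = 0.571 without mouse 1 and 0.307 without mouse 2) and with 1 value per mouse (adjusted p = 0.458).

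Bmp4, a ligand of the crypt stroma, covered the widest relative range among the ligands. In WT, it was 172 and 365 at 1 DPP, 155 and 243 at 2 DPP, 50.7 and 146 at 3 DPP, 20.4 and 71.6 at 5 DPP, and 125 and 121 at 7 DPP. Its Tnfr2-/- levels were 90.7 and 175 at 1 DPP, 53.4 and 89.7 at 2 DPP, 26.9 and 43.0 at 3 DPP, 67.8 and 76.5 at 5 DPP, and 71.4 and 86.4 at 7 DPP. The Tnfr2-/- libraries were below both WT libraries at 2, 3 and 7 DPP and overlapped them at 1 and 5 DPP. The early log2 fold change was -1.26 (SE 0.34, 95% interval -1.98 to -0.53, limma adjusted p = 0.103), which was not called, and the late one was 0.12 (SE 0.41, adjusted p = 0.893). Without WT mouse 1, whose Bmp4 was below that of WT mouse 2 on 4 of 5 days, the early value was -1.79 (adjusted p = 0.0188), and without WT mouse 2 it was -0.72 (adjusted p = 0.165). Without either WT library of 5 DPP, the early value stayed at -1.26 with an adjusted p of 0.0498 and 0.0499. The late value was -0.31 without WT mouse 1 (adjusted p = 0.658). Over all days Bmp4 was -0.71 (adjusted p = 0.179), and it was -0.95 (adjusted p = 0.0258) without WT mouse 1 at 5 DPP and -1.20 (adjusted p = 0.0309) without WT mouse 1 altogether. Bmp4 reads were shared by the authors' quantification over several transcripts, the leading 3 with 46.8%, 35.7% and 14.7% of the summed level, so the gene total was used.

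Bmp7, the third ligand, ranged from 10.2 to 69.8 in WT and from 11.3 to 35.7 in Tnfr2-/-. At 1 DPP it was 51.2 and 69.8 in WT and 24.0 and 33.2 in Tnfr2-/-, without overlap, and at the other 4 days the genotypes overlapped. Its log2 fold change was -0.69 at the early days (SE 0.27, limma adjusted p = 0.276) and 0.20 at the late days (SE 0.33, adjusted p = 0.757), neither of them called. The early value was -1.14 without WT mouse 1 (adjusted p = 0.0433) and -0.23 without WT mouse 2 (adjusted p = 0.571), and the late one was -0.15 without WT mouse 1 (adjusted p = 0.797).

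Bmp1, the protease gene, was higher in Tnfr2-/- over all days (log2 fold change 0.73, SE 0.21, adjusted p = 0.0410 by limma). In WT, it was 28.3 and 42.5 at 1 DPP, 19.0 and 39.9 at 2 DPP, 18.1 and 32.3 at 3 DPP, 14.5 and 46.3 at 5 DPP, and 20.2 and 33.9 at 7 DPP. The Tnfr2-/- values of Bmp1 were 74.3 and 55.8 at 1 DPP, 36.9 and 47.9 at 2 DPP, 27.0 and 34.2 at 3 DPP, 31.6 and 39.8 at 5 DPP, and 68.7 and 74.6 at 7 DPP. The genotypes were apart at 1 and 7 DPP, and at 2 and 3 DPP WT mouse 2 lay within the Tnfr2-/- range and at 5 DPP above it. WT mouse 2 averaged 39.0 over the 5 days and WT mouse 1 averaged 20.0.

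With Grem1, Bmp1 made 2 of the 8 tested members called over all days, where 7.6% of all genes were called, 4.51% as higher and 3.09% as lower. The Bmp1 call was lost with mouse as a correlated block (adjusted p = 0.0730), with 1 value per mouse (adjusted p = 0.489), without the filter on low genes (0.0754), without the trend (0.0510) and without any 1 of 13 of the 20 libraries (adjusted p 0.0536 to 0.0822), all except WT mouse 2 at 1, 2, 3 and 5 DPP and Tnfr2-/- mouse 1 at 2, 3 and 5 DPP. It was also lost without WT mouse 1 (log2 fold change 0.25, adjusted p = 0.493) or without either Tnfr2-/- mouse (adjusted p = 0.184 and 0.341). Bmp1 was not called at the early days (0.59, adjusted p = 0.380) or the late days (0.92, adjusted p = 0.120), but it was called at both without WT mouse 2 (0.99, adjusted p = 0.0100, and 1.50, adjusted p = 0.00223) and at the late days without its library of 5 DPP alone (1.33, adjusted p = 0.0155). Of the 12 fibroblast markers described further on, 3 were also called as higher over all days (Dcn, Thy1 and Vim), and their part in the Bmp1 difference was not tested. In the Tnfr2-/- mouse 1 library of 1 DPP, 32.5 of the 74.3 came from a transcript that was listed at 0 in most libraries, and in the WT mouse 2 library of 5 DPP the same transcript gave 18.5 of the 46.3. The main Bmp1 transcript, which carried 71.0% of the summed level, was between 5.32 and 33.9 in WT and between 23.8 and 58.4 in Tnfr2-/-.

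**Figure D2:**
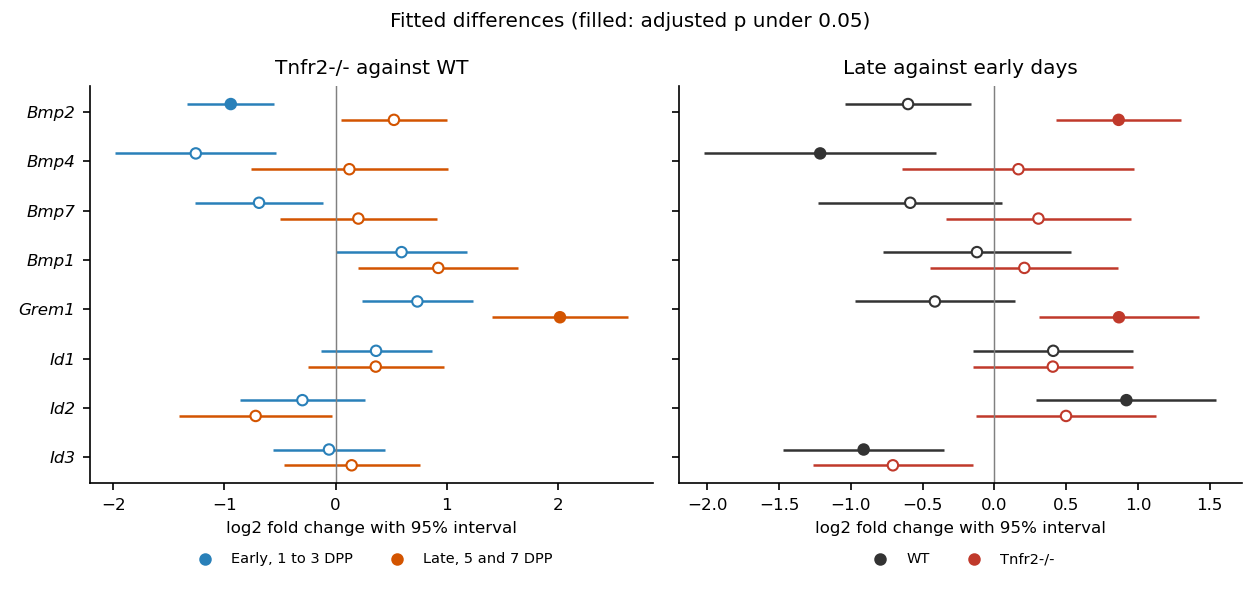
Fitted log2 fold changes (x axis, on the log2(value + 1) scale) with 95% intervals as horizontal lines for the 8 tested genes (y axis), left for Tnfr2-/- against WT at the early and the late days, right for late against early days within WT and within Tnfr2-/-, with filled points where the limma adjusted p was under 0.05. On the left the filled points are Bmp2 early at -0.94 and Grem1 late at 2.02, and on the right Bmp2 lies at -0.60 in WT and 0.87 in Tnfr2-/-.

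The ligand and the antagonist levels were also set against each other within each library, as the ratio of Grem1 to the sum of Bmp2, Bmp4 and Bmp7. This ratio was formed after the levels had been seen and carries no test. In WT it was between 0.737 and 1.41 (median 0.983) in the 6 early libraries and between 1.01 and 1.66 (median 1.58) in the 4 late ones. In Tnfr2-/- it was between 2.47 and 5.38 (median 3.07) in the 6 early libraries and between 3.62 and 6.67 (median 4.81) in the 4 late ones. Each Tnfr2-/- library was above each WT library, but how often ratios of other genes separate in this way was not computed. Of the genes in the ratio, only Bmp2 was called between genotypes at the early days and only Grem1 at the late days. Bmp3, Bmp5 and Bmp8b were not part of the sum, and Bmp8b was between 15.9 and 57.0. The ligand sum itself had a median of 120.2 in Tnfr2-/- and 279.7 in WT at the early days, and of 160.2 and 167 at the late days.

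**Figure D3:**
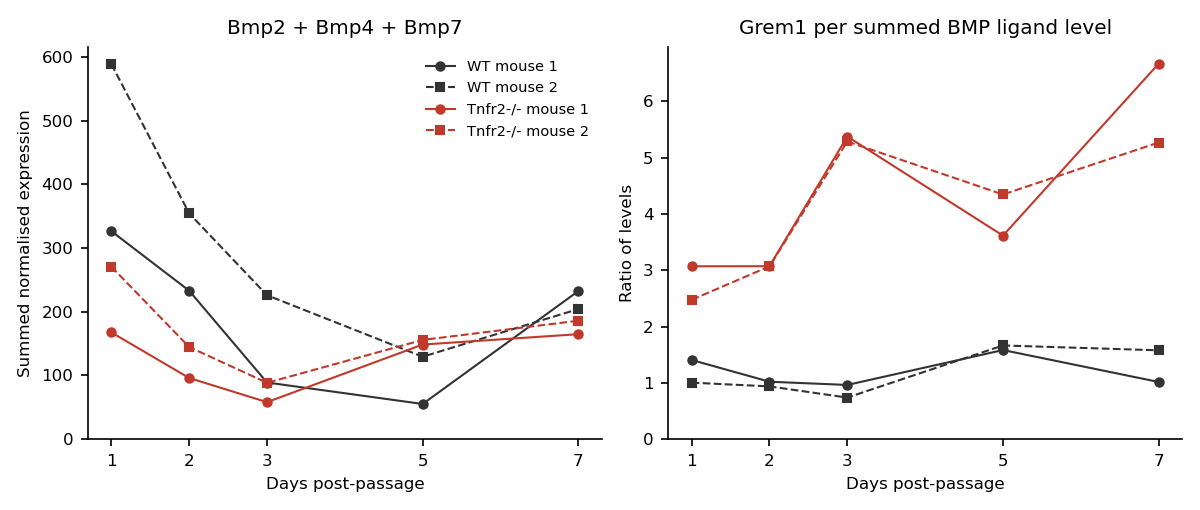
Left, the summed normalised expression of Bmp2, Bmp4 and Bmp7, and right, the ratio of Grem1 to that sum (y axes, linear, from 0), by DPP (x axis) in each library, with WT in black, Tnfr2-/- in red and a line per mouse. The ratio stays at or below 1.66 in WT and at or above 2.47 in Tnfr2-/-.

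The Id genes encode inhibitors of basic helix-loop-helix factors and are the usual readout of BMP signalling. None of the 3 was called between genotypes at the early days, at the late days or over all days by limma (0 of 3, beside 1.2%, 6.45% and 7.6% of all genes, with Id2 at an unadjusted p of 0.0332 over all days and 0.0414 at the late days). Pooled over days, the fitted log2 difference was 0.36 for Id1 (95% interval -0.03 to 0.76, adjusted p = 0.267), -0.47 for Id2 (-0.89 to -0.04, adjusted p = 0.179) and 0.02 for Id3 (-0.34 to 0.38, adjusted p = 0.958). The interval of Id3 reaches 0.38 on this scale, and those of Id1 and Id2 reach further. The 0 of 3 at the late days did not hold without some samples: Id2 went from -0.72 (adjusted p = 0.199) to -1.12 (adjusted p = 0.0489) without Tnfr2-/- mouse 2 at 5 DPP, and Id1 from 0.36 (adjusted p = 0.490) to 0.85 (adjusted p = 0.0399) without WT mouse 1.

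Id1 differed between the WT mice on every day. It was 52.5, 66.5, 83.4, 72.5 and 134 in WT mouse 1 at the 5 successive days and 35.1, 51.6, 39.3, 41.9 and 58.9 in WT mouse 2. Tnfr2-/- mouse 1 had 52.1, 73.9, 73.9, 139 and 65.3, and mouse 2 had 52.8, 91.0, 70.9, 92.0 and 79.4. The Tnfr2-/- libraries were above both WT libraries at 2 and 5 DPP, and the fitted difference over all days was 0.76 without WT mouse 1 (limma adjusted p = 0.0118) and -0.03 without WT mouse 2 (adjusted p = 0.927).

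Id2 and Id3 changed with time in WT, in opposite directions. Id2 in WT was 14.6 and 15.1 at 1 DPP, 16.7 and 8.77 at 2 DPP, 6.92 and 9.38 at 3 DPP, 24.8 and 18.0 at 5 DPP, and 19.5 and 28.8 at 7 DPP, so that all 4 late libraries were above all 6 early ones. The change from early to late days in WT was 0.92 (SE 0.29, limma adjusted p = 0.0405). Id2 in Tnfr2-/- was 10.7 and 11.3, 8.03 and 6.21, 6.76 and 13.1, 5.27 and 18.2, and 18.8 and 16.1 at the same days, with overlap, and the change of 0.50 (SE 0.29, adjusted p = 0.261) was not called. Without Tnfr2-/- mouse 1 at 5 DPP it was 0.90 (adjusted p = 0.0332), and the difference between the changes of the genotypes was -0.42 (SE 0.41, adjusted p = 0.722), so the time course of Id2 was not shown to differ between them.

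Id3 in WT was 21.7 and 29.4 at 1 DPP, 27.1 and 52.9 at 2 DPP, 13.3 and 28.6 at 3 DPP, 10.7 and 14.1 at 5 DPP, and 14.4 and 16.1 at 7 DPP. Id3 in Tnfr2-/- was 20.2 and 23.5 at 1 DPP, 25.0 and 47.7 at 2 DPP, 19.4 and 24.8 at 3 DPP, 9.51 and 11.1 at 5 DPP, and 17.0 and 29.2 at 7 DPP. It fell from early to late days in WT, by a fitted value of -0.91 (SE 0.26, adjusted p = 0.0257 by limma), and was -0.71 in Tnfr2-/- (SE 0.26, adjusted p = 0.0716, or 0.00764 with mouse as a block, and 0.0410 to 0.0490 without any 1 of 3 libraries, those of WT at 3 DPP and of Tnfr2-/- mouse 1 at 2 DPP). The difference between these changes was 0.20 (SE 0.37, adjusted p = 0.874), so the time course of Id3 was not shown to differ between genotypes.

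The comparison of late with early days asked how the pathway moved as the colonoids grew after passage. In WT, 3 of the 8 tested members were called, where 20.1% of all genes were, 11.6% as higher and 8.52% as lower: Id2 rose, and Id3 and Bmp4 fell (Bmp4 log2 fold change -1.21, SE 0.38, limma adjusted p = 0.0368). With mouse as a block, 5 were called, where 24.9% of all genes were, the added ones being Bmp2 (-0.60, adjusted p = 0.0383) and Bmp7 (-0.59, adjusted p = 0.0134). Without the block, Bmp2 had an adjusted p of 0.0521, and it was called without WT mouse 1 (-0.95, adjusted p = 0.0208), without any 1 of 4 WT libraries (mouse 1 at 1, 3 and 7 DPP and mouse 2 at 5 DPP, adjusted p 0.0183 to 0.0422) and under median-of-ratios scaling (adjusted p = 0.0483). Bmp7 was called without WT mouse 1 at 3 DPP (-0.83, adjusted p = 0.0458). Leaving out single libraries ended the Id2 call in 15 of 20 cases (adjusted p 0.0501 to 0.142), the exceptions being WT mouse 1 at 2 DPP and the 4 Tnfr2-/- libraries of 3 and 5 DPP. It ended the Bmp4 call in 6 cases (adjusted p 0.0736 to 0.185: WT mouse 2 at 1, 2, 3 and 7 DPP, WT mouse 1 at 5 and 7 DPP) and the Id3 call in 5 (adjusted p 0.0606 to 0.0978: WT mouse 2 at 1, 2 and 3 DPP, WT mouse 1 at 5 and 7 DPP). Without a whole mouse of the 4, the Bmp4 (adjusted p 0.0521 to 0.121) and Id3 calls (0.0607 to 0.196) were lost in each case, and the Id2 call in all but that of Tnfr2-/- mouse 1 (0.0506 to 0.246). Without the filter on low genes, the Bmp4 (adjusted p = 0.0717) and Id2 (0.0739) calls were lost.

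In Tnfr2-/-, 2 of the 8 tested members were called between late and early days, both as higher, where 20.3% of all genes were called, 10.4% as higher and 9.93% as lower. Bmp2 rose by 0.87 on the log2 scale (SE 0.20, adjusted p = 0.00926 by limma), a call that was kept without each of the 20 libraries but not without Tnfr2-/- mouse 1 or 2 (adjusted p = 0.413 and 0.157). Its Tnfr2-/- level was 52.7 and 62.8 at 1 DPP, lower at 2 and 3 DPP, and 55.6 to 68.7 at the late days. Early and late libraries thus overlapped, and the rise was from the levels of 2 and 3 DPP. Grem1 rose by 0.87 (SE 0.26, adjusted p = 0.0298, or 0.00135 with mouse as a block), and this call was lost without any 1 of 7 libraries (adjusted p 0.0562 to 0.107), those of Tnfr2-/- mouse 1 at 1, 2, 3, 5 and 7 DPP and of mouse 2 at 5 and 7 DPP. It was also lost without either Tnfr2-/- mouse (adjusted p = 0.491 and 0.234) and without the filter on low genes (adjusted p = 0.0619). In WT the Grem1 change was -0.41 (SE 0.26, adjusted p = 0.283), and without WT mouse 2 at 5 DPP it was -0.74 (adjusted p = 0.0473).

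The late minus the early genotype effect asked if the gap between genotypes moved as the cultures aged. None of the 8 tested members was called by limma without the block, where 0.148% of all genes were called (0.118% higher, 0.0295% lower), although 3 (Bmp2, Bmp4 and Grem1) had an unadjusted p under 0.05. The value for Bmp2 was 1.47 (SE 0.29, adjusted p = 0.0658), for Bmp4 1.38 (SE 0.53, adjusted p = 0.324) and for Grem1 1.28 (SE 0.36, adjusted p = 0.190). With mouse as a block, which compares days within each animal, Bmp2 (adjusted p = 0.0310) and Grem1 (adjusted p = 0.0179) were called, where 1.2% of all genes were. With 1 value per mouse neither was called (adjusted p = 0.331 and 0.304). Without the block, Bmp2 was called without any 1 of 3 WT libraries (mouse 1 at 3 and 7 DPP and mouse 2 at 5 DPP, 1.59 to 1.64, adjusted p 0.0347 to 0.0437) and without WT mouse 1 (1.81, adjusted p = 0.0258), and Grem1 without WT mouse 2 at 5 DPP (1.61, adjusted p = 0.0387). The fibroblast marker Dcn was among the 20 genes called (1.81, adjusted p = 0.0403).

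An F test for any difference among the 5 days called 3 of the 8 tested members in WT, where 12.2% of all genes were called, and 1 in Tnfr2-/-, where 9.95% were. In WT these were Bmp2 (limma adjusted p = 0.00589), Grem1 (0.0148) and Bmp4 (0.0375), each highest at 1 DPP and lower at 3 and 5 DPP. In Tnfr2-/- Bmp2 was called (adjusted p = 0.0191). With mouse as a block, 5 were called in WT (18.8% of all genes), with Bmp7 (0.00107) and Id3 (0.00672) added, and 7 in Tnfr2-/- (16.6% of all genes), that is all tested members but Id2. Without the block, some of these were also called without single libraries: Bmp7 in WT in 3 cases (adjusted p 0.0166 to 0.0498), Id3 in WT in 1 (0.0469) and Grem1 in Tnfr2-/- in 2 (0.0378 in both). Bmp7 in WT was called without WT mouse 2 (0.0331), and without either WT mouse so were Bmp1 (0.0197 and 0.0208) and Grem1 (0.0240 and 0.0241) in Tnfr2-/-. The Grem1 call in WT was lost without WT mouse 2 at 1 DPP (adjusted p = 0.0661). The Bmp4 call in WT was lost without any 1 of 13 libraries (adjusted p 0.0502 to 0.131), without the filter (0.0778) and without the trend (0.0580), and the Bmp2 call in Tnfr2-/- without mouse 1 at 2, 3 or 7 DPP or mouse 2 at 7 DPP (adjusted p 0.0530 to 0.0659). Without a whole mouse, the Bmp4 and Grem1 calls in WT were lost without WT mouse 1 (adjusted p = 0.142 and 0.113) or either Tnfr2-/- mouse (adjusted p 0.215 for Bmp4 in both cases, 0.151 for Grem1), the Bmp2 call in WT without either Tnfr2-/- mouse (adjusted p = 0.114 and 0.115), and the Bmp2 call in Tnfr2-/- without either of its mice (adjusted p = 0.747 and 0.516).

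Of 56 other genes of the pathway, chosen by function, 34 could be tested and 22 were too low or, for Hjv, not matched by symbol. At the late days 6 of the 34 were called between genotypes, beside the 6.45% of all genes (3.8% as higher, 2.64% as lower). The 4 that were higher in Tnfr2-/- all belong to the 11 tested extracellular antagonists and modulators: Fst, which encodes the activin and BMP antagonist follistatin (log2 fold change 2.60, SE 0.41, limma adjusted p = 0.00281), the follistatin-like genes Fstl3 (1.44) and Fstl1 (1.40), and Tll1, a protease of the Bmp1 family (1.34). The 2 that were lower were among the 5 tested other ligands, Bmp5 (-1.66) and Bmp3 (-1.47). The median over the 11 antagonists and modulators was 0.64, beside -0.05 over all genes tested. None of the 9 tested receptors and co-receptors was called between genotypes at the early or late days or over all days, beside 1.2%, 6.45% and 7.6% of all genes.

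The levels of these genes were below that of Grem1. Fst was between 1.59 and 8.52 in the 4 late WT libraries and between 19.4 and 63.5 in the 4 late Tnfr2-/- ones, without overlap. Bmp5 was between 3.74 and 18.8 in the late WT libraries and between 1.50 and 2.87 in the late Tnfr2-/- ones. Tll1 was between 0.526 and 1.01 in the late WT libraries and between 2.44 and 4.62 in the late Tnfr2-/- ones. It reached the mean of 1 needed for testing only through its Tnfr2-/- libraries, so its call gives no support of its own. Of the 6 late calls, 5 were lost without some single library, and that of Fst was kept without each of the 20 but lost with 1 value per mouse (adjusted p = 0.203).

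At the early days 1 of the 34 was called, beside 1.2% of all genes, namely Bmp5 (log2 fold change -1.99, SE 0.30, limma adjusted p = 0.00499), which was between 8.07 and 36.6 in the WT and between 2.22 and 6.98 in the Tnfr2-/- libraries. Over all days 7 were called, beside 7.6% of all genes, and 4 of these calls were lost without some single library, those of Bmp3, Bmp5 and Fstl3 being kept. Fst (1.27), Fstl1 (0.73) and Fstl3 (0.95) were higher in Tnfr2-/-, and Bmp5 (-1.86), Bmp3 (-1.13), Atoh8 (-0.64), a BMP target, and Smad5 (-0.25), a signalling Smad, were lower. None of the 34 was called for the difference between late and early genotype effects by limma, where 0.148% of all genes were called.

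Over time, 7 of the 34 were called between late and early days in WT and 9 in Tnfr2-/-. With 20.1% and 20.3% of all genes called in these comparisons, the counts are near the background. Without some single library, 5 of the 7 calls in WT (all but Bmp8b and Bmpr2) and 6 of the 9 in Tnfr2-/- (all but Bmp8b, Bmpr2 and Smurf2) were lost. In WT, Chrd (0.85), which encodes chordin, Bmpr2 (0.68), the type II BMP receptor, Hes1 (0.54), better known as a Notch target, and Smurf2 (0.47), a ubiquitin ligase of Smads, rose. Fst (-1.46), the ligand gene Bmp8b (-1.03) and the modulator gene Twsg1 (-0.77) fell. In Tnfr2-/-, the 8 largest changes among the called were rises of Chrd (0.87), Tll1 (0.81), Bmpr2 (0.68), Smurf2 (0.64) and Hes1 (0.49) and falls of Bmp3 (-1.11), Bmp8b (-1.05) and Bmp8a (-0.85).

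**Figure D4:**
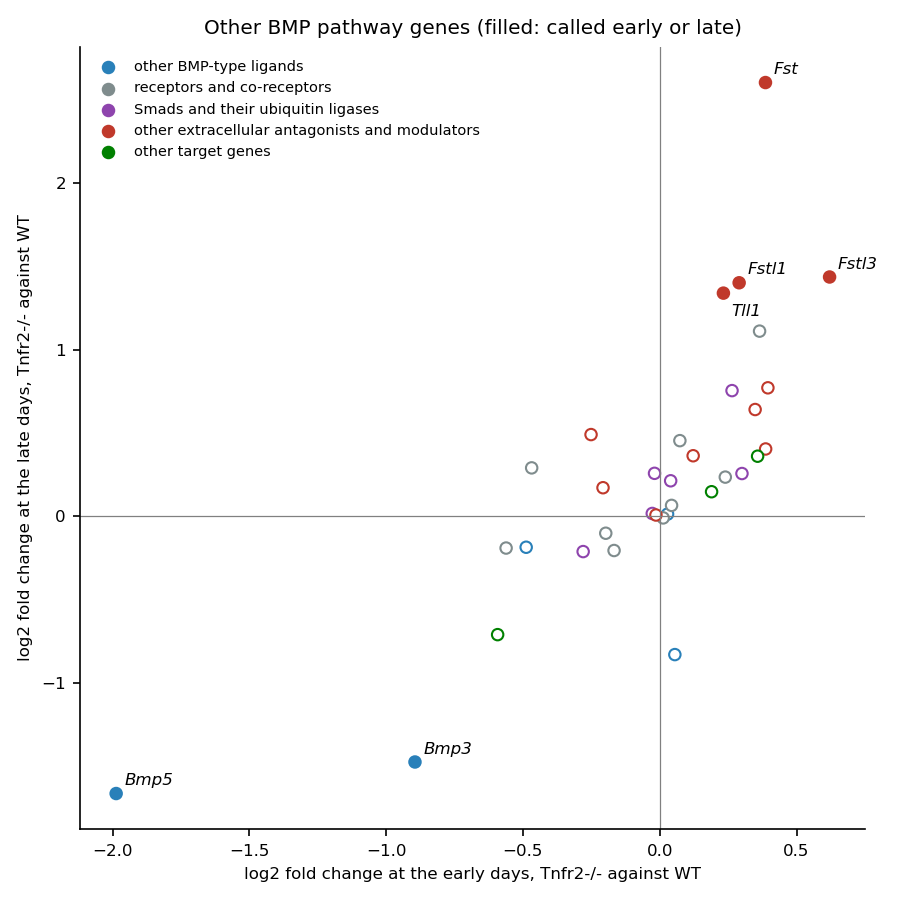
Log2 fold changes of Tnfr2-/- against WT at the early days (x axis) and the late days (y axis) for the 34 tested pathway genes outside the 9, coloured by role and filled and named where called early or late. The named antagonists and modulators lie at 1.34 or more on the late axis, and Bmp5 and Bmp3 lie below 0 on both axes.

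Grem1 is chiefly a product of stromal cells in the colon, so markers of other cell types were read in the same libraries. All 12 fibroblast markers were present, with a summed level between 2507 and 5150 in the early WT libraries, 3528 and 5363 in the early Tnfr2-/- libraries, 1547 and 5187 in the late WT libraries, and 4159 and 10125 in the late Tnfr2-/- libraries. At the late days 2 of the 12 were called, beside 6.45% of all genes, both higher in Tnfr2-/-: the proteoglycan gene Dcn (log2 fold change 2.74, SE 0.22, limma adjusted p = 2.16e-05) and the intermediate filament gene Vim (1.69, SE 0.34, adjusted p = 0.0122). The late median of the 12 was 0.84, beside -0.05 over all genes. At the early days 1 of the 12 was called, Dcn (0.93, adjusted p = 0.0242), beside 1.2% of all genes, and over all days 3 were, Dcn (1.65), Thy1 (1.37) and Vim (1.04), beside 7.6%. Dcn was also 1 of the 20 genes (0.148%) called for the late minus the early genotype effect. With 1 value per mouse none of these calls was kept (adjusted p 0.119 to 0.456). Between late and early days in Tnfr2-/-, where Grem1 also rose, 4 of the 12 were called, all as higher, beside 20.3% of all genes: Col1a1 (log2 change 1.12), Col1a2 (0.99), Dcn (0.91) and Postn (1.53), with a median of 0.46 over the 12. In WT 2 of the 12 were called, beside 20.1% of all genes: Dcn fell (-0.90) and Thy1 rose (1.56), with a median of -0.25. The part of these markers in the change of Grem1 over time was not tested. Between genotypes, Pdgfra and Pdgfrb, which encode fibroblast-defining receptors, had late differences of 0.37 (95% interval -0.28 to 1.01, adjusted p = 0.504) and 0.65 (-0.16 to 1.46, adjusted p = 0.331), with Pdgfra between 20.6 and 64.4 in WT and between 32.4 and 83.2 in Tnfr2-/-.

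The 5 markers of telocytes and crypt-base stroma were Foxl1, Cd34, Ackr4, Pi16 and Rspo3, 1 of them with a mean under 1. They summed to 8.98 to 57.6 in the late WT and 123 to 202 in the late Tnfr2-/- libraries. At the late days 2 of the 4 tested were called, Ackr4 (3.33) and Cd34 (1.65), beside 6.45% of all genes. Over all days 2 were called, Ackr4 (1.98) and Rspo3 (0.83), beside 7.6%, and at the early days 0 of 4 by limma, beside 1.2%, with 2 at an unadjusted p under 0.05. Foxl1, the marker of telocytes, was not among the called genes. The 10 epithelial markers summed to 12641 to 21227 in WT and to 14736 to 21520 in Tnfr2-/-; 3 of the 4 endothelial, 3 of the 5 immune and all 3 glial markers had a mean under 1. The 5 immune markers summed to between 8.60 and 16.8 in WT and between 15.5 and 45.1 in Tnfr2-/-. The macrophage marker Cd68, 1 of the 2 that could be tested, was called as higher early (0.99), late (1.35) and over all days (limma adjusted p = 0.000449), beside 1.2%, 6.45% and 7.6% of all genes. The other tested immune marker was called in none of these comparisons, and the median over the 2 was 0.49 early and 0.82 late. The epithelial markers Cdh1 (0.25) and Epcam (0.36) were called as higher over all days, 2 of 10 beside 7.6% of all genes, and 0 of 10 were called early or late by limma, beside 1.2% and 6.45%, with 5 and 3 at an unadjusted p under 0.05. With mouse as a correlated block, Cdh1, Epcam and Rspo3 over all days and Cd68 early were not called (adjusted p 0.0553 to 0.0703). The 5 smooth muscle markers summed to between 15.3 and 134 in WT and between 29.7 and 253 in Tnfr2-/-. Between late and early days in Tnfr2-/-, beside 20.3% of all genes, Tagln (1 of 4 tested smooth muscle markers) and Ackr4 (1 of 4 stromal ones) were called as higher. Of the 10 epithelial markers, 2 were called as higher (Cdh1 and Epcam) and 2 as lower (Krt8 and Krt19). In WT, beside 20.1%, Tagln was called as higher, Cd34 as lower and 4 epithelial markers as higher. The part of the fibroblast, stromal, immune, smooth muscle and epithelial markers in the Grem1, Bmp1 and Fst differences was not tested, and in bulk RNA a difference in the number of cells of a type and a difference in RNA per cell cannot be told apart.

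**Figure D5:**
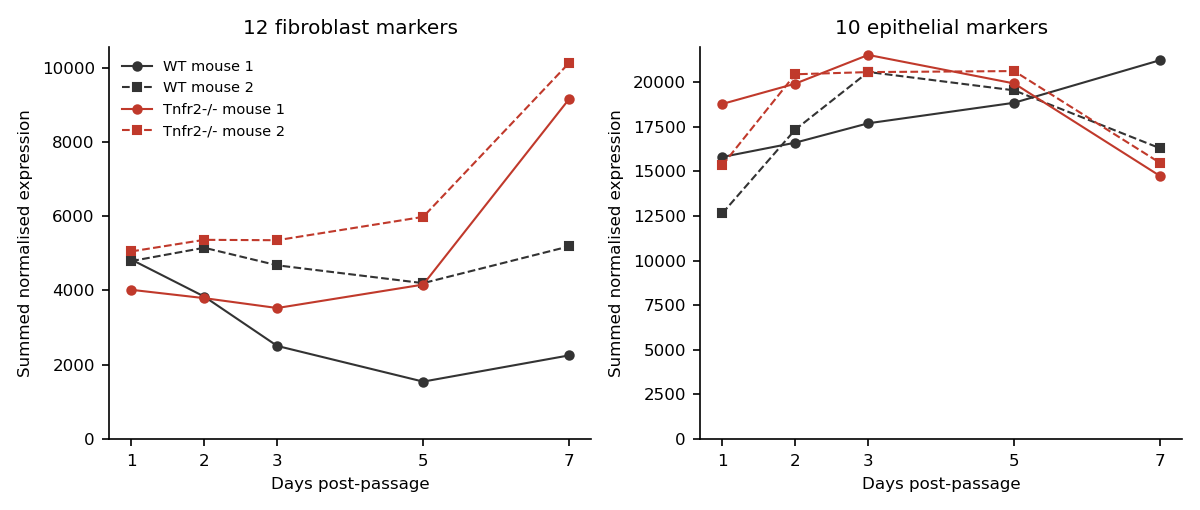
Summed normalised expression (y axes, linear, from 0) of 12 fibroblast markers, left, and 10 epithelial markers, right, by DPP (x axis) in each library, with WT in black, Tnfr2-/- in red and a line per mouse. The late fibroblast sums reach 10125 in Tnfr2-/- and 5187 in WT, and the epithelial sums of the genotypes overlap.

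The genes whose levels followed each member most closely over the 20 libraries were sought among 8892 genes with a mean of at least 10. For Grem1 they were Itgb1 (Pearson r = 0.953), the fibroblast marker Dcn (0.953) and Ctsl (0.952). For Bmp4 they were Tgfbi (0.915), Bmp7 (0.915) and Aldh1a2 (0.893), for Bmp7 Tmem119 (0.920), Bmp4 (0.915) and Prkar1a (0.905), and for Bmp2 Cacna2d1 (0.884), Wnt5a (0.881) and Tpm1 (0.865). Bmp1 was followed by Selenow (0.917), Selenon (0.913) and Vim (0.913). Id1 was followed by Celsr1 (0.882), Mpzl2 (0.834) and Ak4 (0.822), Id2 by Palld (0.882), Kbtbd4 (0.746) and Ankrd12 (0.741), and Id3 by Stx2 (0.846), Gng10 (0.819) and Ifitm2 (0.816). These correlations are descriptions over libraries that share mice, days and genotypes.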

How the data were processed

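RNA from 20 colonoid libraries (2 genotypes, 5 days, 2 mice each) was sequenced by the study from stranded mRNA libraries as single-end reads. Per the labels, CASAVA, kallisto and sleuth were used with mm10. The values deposited by the authors are a signal, estimated transcript abundance (TPM) divided by size factors, with no counts. Beside them stand p- and q-values of a test run by the authors, and these columns were not used. All 20 sample columns were used, and 0 were left aside.

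Of 113974 lines, 781 repeated transcripts were dropped, and the remaining 113193 transcripts were summed per gene symbol into 35240 symbols. A further 199 transcripts without a symbol, at most 0.0989% of any library, stayed out. Genes with a mean of at least 1 (13539) were tested by limma 3.58.1 in R 4.3.3 on log2(value + 1), with a mean-variance trend and Benjamini-Hochberg adjustment over all of them, calls being made at an adjusted p under 0.05. Fold changes on this scale understate the change of low genes. The genotype effect over all days had day as a factor, and the other comparisons were contrasts among 10 group means. The 2-sided tests share 1 estimate of spread per gene. The procedure was also run on simulated data, in which each library varied independently of its mouse. That run does not bear on the spread between mice, and its outcome is not given here.

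All 9 members are named, together with the called pathway genes (the 8 largest per comparison) and the 3 genes most like each member. An item left out of the pathway list and of the search for like genes is not reported here. The members, gene lists and tests were chosen with earlier results of these data known. The series design gives 2 mice per genotype, and the replicate number was read as naming the mouse, which the labels do not spell out. The differences between the 2 mice correlated across genes between days with r of 0.0997 to 0.307 in WT and -0.0511 to 0.0800 in Tnfr2-/-. The pairing thus rests on the labels and was not seen in the Tnfr2-/- correlations across genes. Among the members, Tnfr2-/- mouse 2 was above mouse 1 on 5 of 5 days for Bmp4, Bmp7 and Id3. It was above on 4 days for Grem1 and Bmp1, on 3 for Bmp2, Id1 and Id2, and on 1 for Smad6. Mouse was also fitted as a block, correlated for the genotype effects and as a fixed term for comparisons between days. Other alternatives were a pseudocount of 0.5, no filter, median-of-ratios scaling, no trend, each library or mouse left out, and 1 value per mouse. Gene positions are from GENCODE M21.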

Additional observations from a re-analysis of the deposited data

Results flagged for a closer look

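Among 54 sets of libraries (9 genes in each genotype at the early days, the late days and all days), 9 held a library that stood far from the rest by Dixon's criterion. In independent sets of normally distributed values, chance flags about 1 in 20. These sets hold untransformed values, pool days and share libraries, so the 9 cannot be weighed against that rate. Of these, 3 were in Id3 and came from 2 DPP: WT mouse 2 at 52.9, with the other 9 WT libraries between 10.7 and 29.4, and Tnfr2-/- mouse 2 at 47.7, which stood apart from the other 5 early libraries (19.4 to 25.0) and from the other 9 libraries (9.51 to 29.2). Id1 was high in WT mouse 1 at 7 DPP, at 134 beside 35.1 to 83.4 in the other WT libraries, and in Tnfr2-/- mouse 1 at 5 DPP, at 139 beside 52.1 to 92.0. Bmp4 was high in Tnfr2-/- mouse 2 at 1 DPP, at 175 beside 26.9 to 90.7. Smad6 reached 4.21 in WT mouse 2 at 7 DPP, beside 0 to 1.07 in the other WT libraries. It reached 2.32 in Tnfr2-/- mouse 1 at 1 DPP, beside 0.343 to 0.861 in the other 5 early and 0.177 to 1.27 in the other 9 libraries of that genotype, at levels too low to test.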

How the results depend on the processing

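Depth could not be read from these values, and there were 2 mice per genotype. Which of these limits the calls more was not tested. Over 31 alternatives, 46 of 1424 signed member values took the other sign (29 without a library, 16 without a mouse, 1 under another scaling), none of them a called value. Without a filter, where 22550 genes were tested, 1 member was called over all days, beside 802 genes. In that setting 1 member was called between late and early days in WT, beside 2424 genes, and 1 in Tnfr2-/-, beside 2404. Without the trend 1 member was called over all days, beside 986 genes. The count of genes whose genotype effect moved with time was 20, and it was 7 with a pseudocount of 0.5 and 55 without a filter. The cause of these shifts was not tested.

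With mouse as a block (correlated for the genotype effects, since each mouse has 1 genotype, and a fixed term, paired by animal, for the changes over days), 545 genes and 1 member were called over all days, and 163 genes and 2 members for the change of the genotype effect. The block gave 5 members between late and early days in WT, 2544 genes and 5 members for any change in WT, and 2251 genes and 7 members for any change in Tnfr2-/-. It changed no other count by over 1.5 times. With 1 value per mouse, 2 against 2, 7 genes and 0 members were called over all days, 3 and 0 at the early days, 0 and 0 at the late days (1859 genes had an unadjusted p under 0.05 by limma), and 0 genes for the change of the genotype effect (1528 had an unadjusted p under 0.05 by limma).

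Leaving out a library or a mouse, where a lone library of a group was assumed to vary like the others, moved the genes called from 1029 to between 146 and 1931 over all days, from 873 to 19 to 2186 at the late days, from 162 to 14 to 720 at the early days, from 2724 to 1043 to 2893 between late and early days in WT, from 2755 to 2 to 3430 in Tnfr2-/-, from 20 to 0 to 136 for the change of the genotype effect, from 1653 to 14 to 1939 for any change in WT, and from 1347 to 1 to 2176 in Tnfr2-/-. The lowest of these counts all came without a whole mouse. The 0 for the change of the genotype effect came without either Tnfr2-/- mouse, where 718 and 968 genes had an unadjusted p under 0.05 by limma. The members called lay between 0 and 2 over all days and at the late days, 0 and 3 at the early days, 0 and 4 between late and early days in WT, 0 and 3 in Tnfr2-/-, 0 and 2 for the change of the genotype effect, 0 and 5 for any change in WT, and 0 and 3 in Tnfr2-/-.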
